A study of Rattus norvegicus with 4 samples.

Results

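The antioxidant and glutathione enzymes described here are 10 genes, Gclc, Gclm, Gss, Gsr, Txnrd1, Srxn1, Nqo1, Hmox1, Sod1 and Cat, taken by symbol from the probe annotation of the array. They have 18 of the 33849 gene probes, and all 10 were measured, with 16 of the 18 probes above background in at least 1 group, among 8985 named genes that could be measured. Liver RNA came from 4 male Otsuka Long-Evans Tokushima Fatty (OLETF) rats, a strain that overeats, becomes obese and then diabetic on ordinary chow. Thiamine rats 1 and 2 had drunk water with 0.2% thiamine, or 2 g per L of vitamin B1, for 51 weeks from the age of 4 weeks, and untreated rats 1 and 2 had drunk water without it. All 4 were killed at 55 weeks of age after 16 h of fasting, and each liver was put on its own 1-colour CodeLink array, with no RNA pooled. The study kept 8 rats per group in cages of 2, and the labels do not say how the 4 rats were caged. There was no lean strain among the arrays, so both groups share the OLETF background.

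Glutathione is a small thiol that liver cells hold at a high level and use to reduce peroxides and to conjugate drugs. It is built in a first step by glutamate-cysteine ligase (the catalytic subunit Gclc and the modifier subunit Gclm), finished by glutathione synthetase (Gss) and returned to its reduced form by glutathione reductase (Gsr). Most of these genes belong to the set that the transcription factor NRF2, encoded by Nfe2l2, switches on through antioxidant response elements when its inhibitor KEAP1 is inactivated by electrophiles or oxidants.

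No member passed the test between thiamine and untreated livers, and the members' values went both ways. By the brightest probe of each gene, 7 of the 10 lay above and 3 below the untreated mean, with a median difference of 0.15 on the log2 scale. Over all 8985 named genes the median was 0.00 and 50.6% lay above. Without thiamine rat 1, and likewise without untreated rat 2, 5 of the 10 lay above and the median was 0.02. Gclm had the highest difference among the members, 0.38 ± 0.21 (log2, moderated SE, n = 2 rats per group), and Gss the lowest, -0.44 ± 0.18. The groups did not overlap for Gclm, Txnrd1 and Srxn1, where both thiamine rats lay above both untreated rats, and for Gss, where both lay below. Of all named genes 18.5% were apart in the upward and 19.0% in the downward direction, so 3 and 1 of 10 members is near the background.

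The test was limma over all 18664 kept probes with Benjamini-Hochberg adjustment. It called 0 probes, or 0%, at an adjusted p under 0.05, and 1260 probes, or 6.75%, had an unadjusted p under 0.05. Among the 10 members 0 passed after adjustment and 1, Gss, had an unadjusted p under 0.05 (adjusted p = 0.68, limma). The number of arrays, 2 per group, limits the precision, and over all probes the median moderated SE was 0.19 on the log2 scale. The 95% confidence interval of the fold ran from 0.704 to 1.77 for Hmox1 and from 0.847 to 1.47 for Srxn1.

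**Figure D1:**
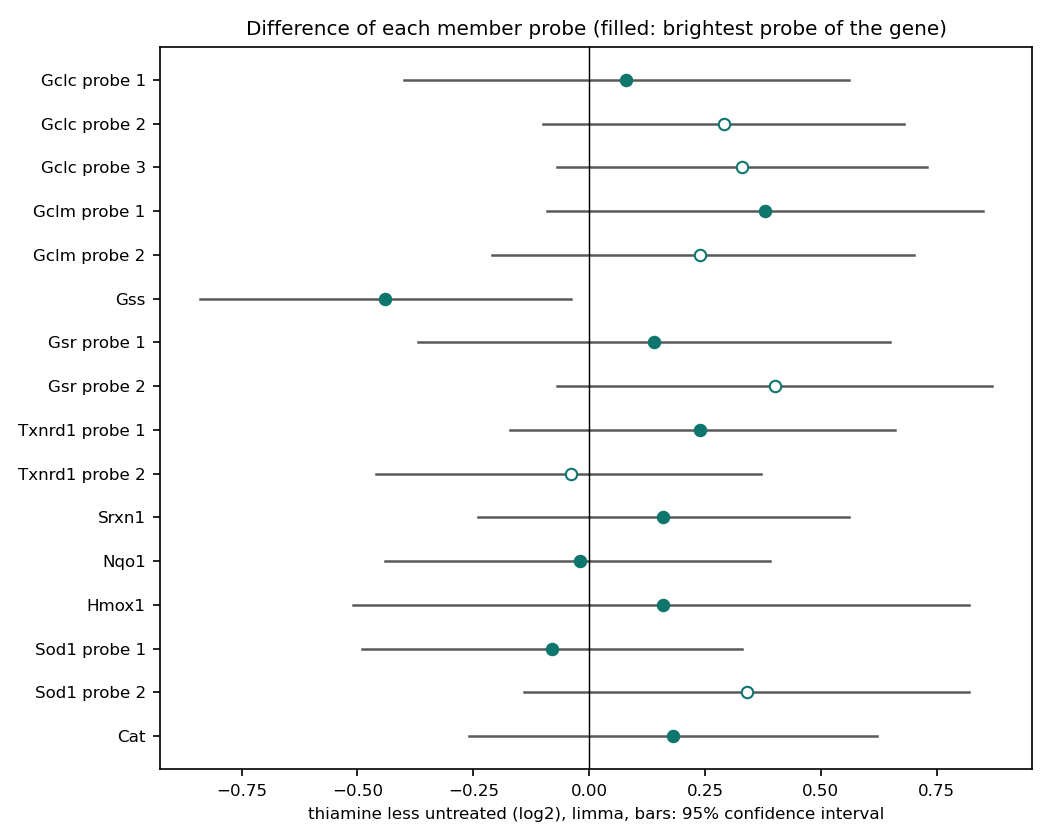
Difference between thiamine and untreated livers (log2) for each of the 16 member probes in the fit, with 95% confidence intervals from limma. Filled points are the brightest probe of a gene; the interval of Gss, from -0.84 to -0.04, is the 1 that lies on a single side of 0.

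The sequences that NRF2 and its small MAF partners recognise were looked for in the promoters, since the members are known for this shared control. RefSeq windows on GRCr8, from 250 bases before to 50 after the gene start, were at hand for 8 members, and not for Gsr and Hmox1. The core of the antioxidant response element, TGACNNNGC on either strand, occurred in the windows of Gclm and Txnrd1. The letters TGAGTCA on either strand, a core shared by MAF and AP-1 sites, occurred at 2 places in the window of Srxn1. Both kinds of match can overlap, and 0.884% of all windows held both. The stretches with the matches are printed from the gene's own strand, with the matched letters in capitals, for the 3 members in which they were found.
Gclm, chr2:213031943-213031991, plus strand: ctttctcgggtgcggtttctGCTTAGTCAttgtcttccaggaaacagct
Txnrd1, chr7:22755954-22756002, minus strand: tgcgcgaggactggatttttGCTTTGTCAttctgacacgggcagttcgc
Srxn1, chr3:161064730-161064819, plus strand: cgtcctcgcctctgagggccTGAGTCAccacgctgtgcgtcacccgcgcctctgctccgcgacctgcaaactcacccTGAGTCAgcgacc

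In Gclm and Txnrd1 the element lies on the strand opposite to the gene, at positions -172 to -164 and -78 to -70 from the start, and Txnrd1 holds it in 1 of its 2 windows. The matches of Srxn1 lie at -62 to -56 and at -5 to 2. Counted per gene, 2 of the 8 members with a window held the element and 1 held TGAGTCA. Of all measured named genes with a window 15.4% and 3.81% held them, and no test was made of these shares. Counted per window, the element occurred in 12.1% of all 33469 windows, TGAGTCA in 4.63% and either of them in 15.8%. By their brightest probes, Gclm, Txnrd1 and Srxn1 are also the 3 members with both thiamine rats above both untreated rats. This does not hold for the second probes of Gclm and Txnrd1, where the groups overlapped, and the probe of Srxn1 was dim. Gclc, with no match in its window, had both thiamine rats above both untreated rats on probes 216103 and 211098. Among all named genes apart in that way, 16.7% of those with a window held the element, against 15.4% of all measured named genes with a window, and TGAGTCA was held by 4.02% against 3.81%. A match of letters is a description and no evidence that a factor binds there. Sequence outside the windows was not searched, so a window without a match does not show that a member lacks the element.

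Gclc carries the active site of glutamate-cysteine ligase, the step that limits glutathione synthesis, and its 3 probes did not give the same picture. The brightest, probe 96029, stood at 11.50 and 11.71 in thiamine rats 1 and 2, against 11.81 and 11.24 in untreated rats 1 and 2 (log2 normalized intensity). The groups overlapped there, with untreated rat 1 the highest and untreated rat 2 the lowest of the 4, and the difference was 0.08 ± 0.22 (adjusted p = 0.97). The other probes separated the groups. Probe 216103 was at 11.00 and 11.01 in thiamine rats, against 10.72 and 10.70 in untreated rats, a difference of 0.29 ± 0.18 or 1.22-fold (adjusted p = 0.83). Probe 211098 was at 9.89 and 9.93 in thiamine rats, against 9.67 and 9.48 in untreated rats, a difference of 0.33 ± 0.18 or 1.25-fold (adjusted p = 0.81). Rats of a group lay within 0.02 of each other for probe 216103, and the SE is larger than that spread because limma draws it towards the spread of all probes. With the mean of the 3 probes in place of the brightest, the difference of Gclc was 0.23. For the brightest probe it was -0.20 without untreated rat 2, at -0.02 without thiamine rat 2 and at 0.36 without untreated rat 1.

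Gclm, the modifier subunit that raises the efficiency of Gclc, stood at 11.68 and 11.71 in thiamine rats 1 and 2, against 11.59 and 11.03 in untreated rats 1 and 2 on its brightest probe, 155095. Both thiamine rats lay above both untreated rats, untreated rat 1 by a small margin. The difference was 0.38 ± 0.21, or 1.31-fold with a 95% confidence interval from 0.942 to 1.81 (adjusted p = 0.81). The second probe of Gclm, 139079, was at 10.69 in both thiamine rats, against 10.70 and 10.19 in untreated rats, so that untreated rat 1 was level with them. On both probes untreated rat 2 stood apart from the other 3 rats. Without it the difference of the brightest probe was 0.11, and without untreated rat 1 it was 0.66.

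Gss, which adds glycine to complete glutathione, went the other way. Its single probe, 152052, was at 9.73 and 9.63 in thiamine rats 1 and 2, against 10.03 and 10.22 in untreated rats 1 and 2. The groups did not overlap, and the gap between them was wider than the spread within either. The difference was -0.44 ± 0.18, a fold of 0.737 with a 95% confidence interval from 0.558 to 0.974. The spot of untreated rat 2 was marked as contaminated by the image software. Without untreated rat 2 the difference was -0.34, and over the other leave-outs it stayed between -0.53 and -0.39.

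Gsr uses NADPH to turn oxidised glutathione back to the reduced form. On its brightest probe, 300021, it was at 12.04 and 11.65 in thiamine rats, against 11.41 and 11.99 in untreated rats, with a difference of 0.14 ± 0.23 (adjusted p = 0.95). Thiamine rat 1 and untreated rat 2 were nearly level at the top, and the groups overlapped. A second, far dimmer probe, 180064, was at 8.00 and 7.52 in thiamine rats, against 7.22 and 7.51 in untreated rats, a difference of 0.40 ± 0.21 (adjusted p = 0.81). Both thiamine rats lay above both untreated rats on probe 180064, thiamine rat 2 by a small margin. The array lists a RefSeq transcript for probe 180064 and another sequence record for probe 300021. The spot of probe 180064 in untreated rat 1 was marked as near background, so the size of its difference is uncertain. The probe was kept through the thiamine group alone, which favours higher values there, so its direction and lack of overlap are no support. The brightest probe changed sign with the rats used: it was at -0.05 without thiamine rat 1, at -0.15 without untreated rat 1, at 0.34 without thiamine rat 2 and at 0.42 without untreated rat 2.

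**Figure D2:**
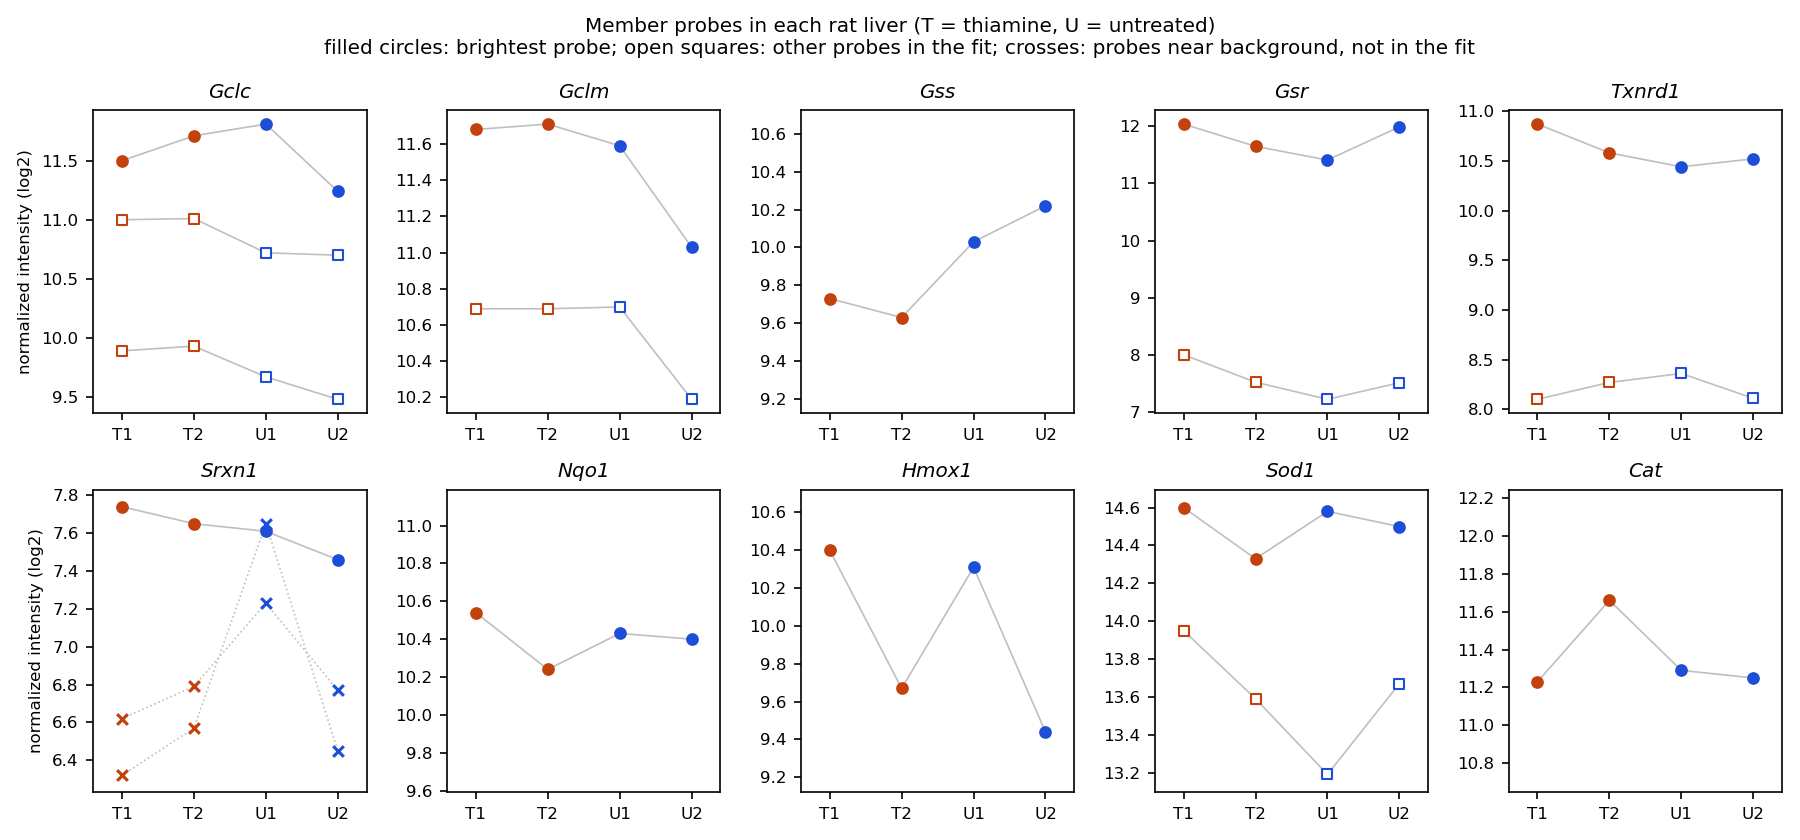
Log2 normalized intensity of every member probe in thiamine rats 1 and 2 (orange) and untreated rats 1 and 2 (blue), 1 panel per gene; thin lines join the values of 1 probe. Gss is below the untreated rats in both thiamine rats, and Hmox1 varies more within each group than between the groups.

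Txnrd1 and Srxn1 keep protein thiols reduced. Txnrd1 is the cytosolic thioredoxin reductase, a selenoprotein that passes electrons from NADPH to thioredoxin. Its brightest probe, 304017, was at 10.87 and 10.58 in thiamine rats, against 10.44 and 10.52 in untreated rats. Thiamine rat 2 was above the nearer untreated rat by less than the spread within the thiamine group, and the difference was 0.24 ± 0.19, or 1.18-fold (adjusted p = 0.87). The second probe, 54009, was at 8.10 and 8.27 in thiamine rats, against 8.36 and 8.11 in untreated rats, with a difference of -0.04 ± 0.19. The probes of Txnrd1 thus differed in direction. With their mean in place of the brightest the difference was 0.10, and leaving out thiamine rat 1 also gave 0.10.

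Srxn1, sulfiredoxin, repairs peroxiredoxins that peroxide has overoxidised. Its brightest probe, 172100, was at 7.74 and 7.65 in thiamine rats, against 7.61 and 7.46 in untreated rats, a difference of 0.16 ± 0.18 (adjusted p = 0.92). The lowest signals above background lay at 7.08 on both thiamine arrays and at 7.25 and 7.24 on the untreated arrays, so this probe was dim. The other probes of Srxn1 were near background and left out of the test. Probe 160008, at 6.62 and 6.79 in thiamine rats against 7.23 and 6.77 in untreated rats, was near background on all 4 arrays. Probe 60070, at 6.32 and 6.57 in thiamine rats against 7.65 and 6.45 in untreated rats, was above background in untreated rat 1 alone.

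Nqo1 reduces quinones and is the textbook readout of NRF2 activity. It was at 10.54 and 10.24 in thiamine rats, against 10.43 and 10.40 in untreated rats. The untreated rats lay between the thiamine rats. The difference was -0.02 ± 0.19, with a 95% confidence interval from -0.44 to 0.39, and it was 0.02 with median scaling of the arrays and 0.13 without thiamine rat 2. A change of up to 1.31-fold upward, or to a fold of 0.738 downward, is within that interval.

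Hmox1, haem oxygenase 1, breaks haem down to biliverdin, iron and carbon monoxide. It was at 10.40 and 9.67 in thiamine rats 1 and 2, against 10.31 and 9.44 in untreated rats 1 and 2. The rats of a group were 0.73 apart in the thiamine group and 0.88 apart in the untreated group, the widest spread among the members' brightest probes in either group, and the groups overlapped. The difference was 0.16 ± 0.30 (adjusted p = 0.96). Leaving out untreated rat 2 gave -0.28, leaving out thiamine rat 1 gave -0.20 and leaving out untreated rat 1 gave 0.60.

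Hmox1 is known to be strong in the liver's macrophages, the Kupffer cells, so their markers are given beside it. Of 9 measured macrophage markers 9 were above the untreated mean, with a median difference of 0.62, and 0 passed after adjustment (adjusted p between 0.33 for Ctss and 0.89 for Csf1r, limma). At an unadjusted p under 0.05, 6 of the 9 were counted, each of them above. Their summed intensity was 29060 and 20200 in thiamine rats 1 and 2, against 19730 and 12800 in untreated rats 1 and 2, and all 9 were above background in at least 1 group; Marco, Vsig4 and Cd5l of the list were not analysed here. The lectin Clec4f, a defining Kupffer cell marker, was at 13.42 and 13.01 in thiamine rats, against 13.02 and 12.17 in untreated rats. Csf1r, the receptor for a macrophage growth factor, was at 11.73 and 11.09 in thiamine rats, against 11.43 and 10.76 in untreated rats. The order of the rats by Hmox1 was thiamine rat 1, untreated rat 1, thiamine rat 2, untreated rat 2. Of the 9 markers 3 gave that order, Csf1r, Clec4f (with the middle pair 0.01 apart) and Cd68, and 6 did not: C1qa, C1qb, C1qc, Ctss, Cd163 and Adgre1. Within the groups the markers were closer to Hmox1. In all 9 thiamine rat 1 was above thiamine rat 2, and in all but Adgre1 untreated rat 1 was above untreated rat 2, as for Hmox1. In these 6 thiamine rat 2 was above untreated rat 1, as for C1qa, at 12.08 and 11.51 in thiamine rats, against 11.22 and 10.76 in untreated rats. The part of macrophages in the values of Hmox1 was not tested. In whole liver, more cells of a type and more RNA per cell cannot be told apart.

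**Figure D3:**
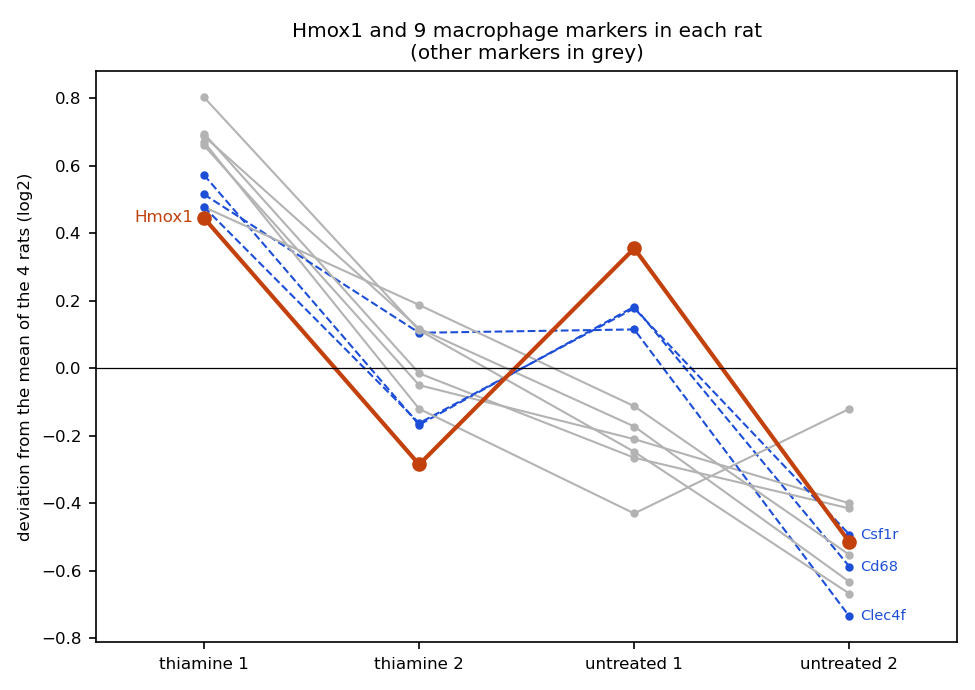
Deviation of Hmox1 (orange) and of 9 macrophage markers from their own mean over the 4 rats (log2). Of the 9 markers 3 (Csf1r, Cd68 and Clec4f, dashed blue) place the 4 rats in the order that Hmox1 does, and the other 6 (grey) do not. All 9 have thiamine rat 1 above thiamine rat 2, and all but Adgre1 have untreated rat 1 above untreated rat 2, as Hmox1 does.

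Sod1 and Cat remove superoxide and hydrogen peroxide. Sod1, the cytosolic copper-zinc superoxide dismutase, was at 14.60 and 14.33 in thiamine rats, against 14.58 and 14.50 in untreated rats on its brightest probe, 8030, with a difference of -0.08 ± 0.19 (adjusted p = 0.96). The groups overlapped. The second probe, 294051, was at 13.95 and 13.59 in thiamine rats, against 13.19 and 13.67 in untreated rats, a difference of 0.34 ± 0.22 (adjusted p = 0.84). The mean of both probes gave 0.13, so the sign of Sod1 depends on the probe. Cat, the peroxisomal catalase, was at 11.23 and 11.66 in thiamine rats, against 11.29 and 11.25 in untreated rats. Thiamine rat 2 stood above the other 3, which lay within 0.06 of each other. The difference was 0.18 ± 0.20 (adjusted p = 0.92), and leaving out thiamine rat 2 or thiamine rat 1 gave -0.04 or 0.40. The spot of Cat in untreated rat 1 was marked as contaminated.

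**Figure D4:**
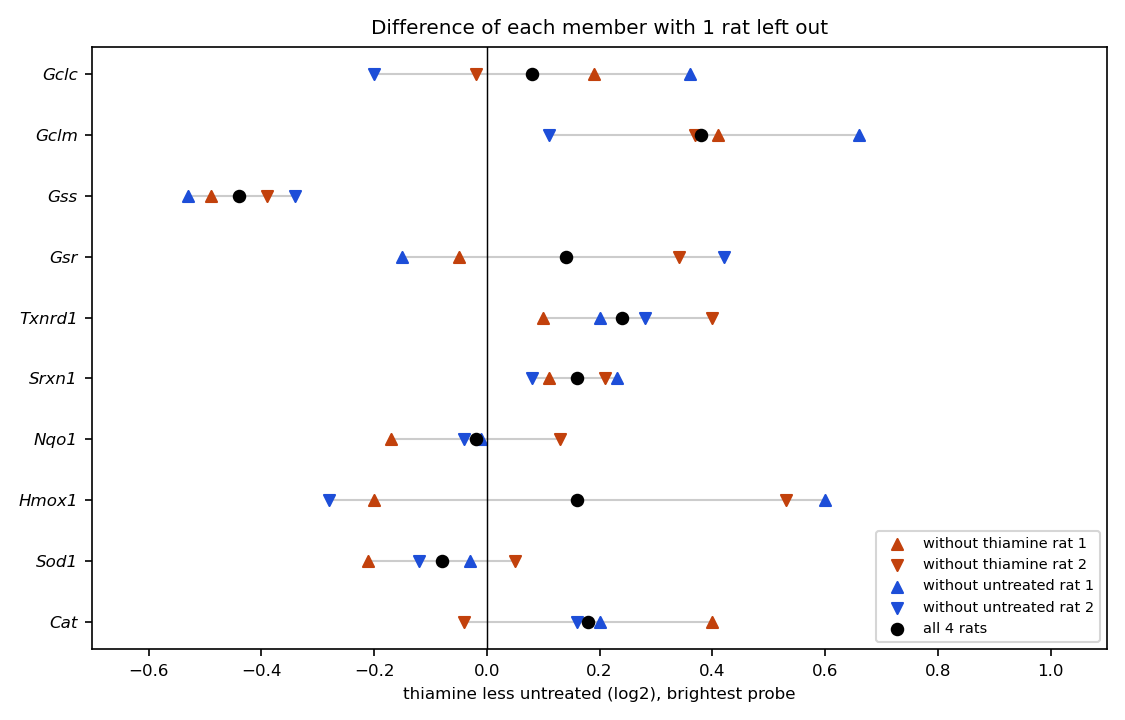
Difference between thiamine and untreated livers (log2) for the brightest probe of each member, with all 4 rats (black) and with 1 rat left out (triangles). Gclm, Gss, Txnrd1 and Srxn1 keep their sign in all 4 leave-outs, which the lack of overlap between their groups nearly fixes in advance. The other 6 members cross 0 in at least 1.

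Per rat, the members did not set the groups apart as a whole. The median deviation of the 10 members from their own means was 0.13 and -0.07 in thiamine rats 1 and 2, against 0.05 and -0.09 in untreated rats 1 and 2. The lower thiamine rat was thus below the higher untreated rat. In thiamine rats 7 and 4 members were above their own mean, against 6 and 3 in untreated rats.

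Regulators of the pathway were measured for 7 of 8 listed genes, since Keap1 was near background. Nfe2l2 itself was at 12.14 and 12.17 in thiamine rats, against 12.14 and 12.38 in untreated rats, a difference of -0.10 ± 0.18 (adjusted p = 0.95). Maff, a small MAF protein that pairs with NRF2 on DNA, had the largest difference of the group: it was at 9.41 and 9.19 in thiamine rats, against 8.71 and 8.49 in untreated rats. Its difference was 0.70 ± 0.19, with no overlap between the groups and an adjusted p of 0.33 (limma). The related Mafk was at -0.15 ± 0.21 and Mafg at 0.00 ± 0.21. Sqstm1, the autophagy receptor p62 that binds KEAP1, was at 13.66 and 13.22 in thiamine rats, against 12.91 and 13.20 in untreated rats, a difference of 0.38 ± 0.21. Bach1, a repressor at the same elements, differed by 0.20 ± 0.19 and Cul3, part of the ligase that KEAP1 serves, by 0.11 ± 0.19.

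Of 79 genes on 8 lists of the wider antioxidant system, regulators included, 60 were measured, 33 above and 27 below the untreated mean, with a median difference of 0.03. None passed after adjustment, and 1 above and 1 below had an unadjusted p under 0.05 (limma), Maff and Txnip. The groups did not overlap for 7 of the 60 in the upward and 9 in the downward direction. Of all named genes 18.5% and 19.0% were apart in these directions, so the lists did not exceed the background. Txnip, which binds and inhibits thioredoxin, was at 11.77 and 11.19 in thiamine rats, against 11.92 and 12.06 in untreated rats, a difference of -0.51 ± 0.22 (adjusted p = 0.70). Among 11 thioredoxin and glutaredoxin genes 4 were above and 7 below. Glutaredoxin, Glrx, was at 12.08 and 12.61 in thiamine rats, against 11.81 and 12.02 in untreated rats, a difference of 0.43 ± 0.21, and the methionine sulfoxide reductase Msrb2 differed by -0.28 ± 0.18.

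Of 10 glutathione peroxidases and peroxiredoxins 7 were above and 3 below, with a median of 0.07. Gpx8 differed by 0.40 ± 0.20, Gpx2 by -0.28 ± 0.21 and the mitochondrial peroxiredoxin Prdx3 by -0.23 ± 0.19. The mitochondrial superoxide dismutase Sod2 differed by -0.05 ± 0.18 and Ccs, the copper chaperone of Sod1, by -0.14 ± 0.18. Metallothionein genes were near background or not analysed here.

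Genes around glutathione precursors and turnover were split, 4 above and 4 below. Slc3a2, the heavy chain of the cystine importer and of other amino acid carriers, was at 12.48 and 12.16 in thiamine rats, against 12.08 and 11.71 in untreated rats, a difference of 0.42 ± 0.21 (adjusted p = 0.77). Its partner Slc7a11 was near background. The glyoxalase Glo1, which uses glutathione to clear methylglyoxal, differed by -0.33 ± 0.18, and Chac2, a glutathione-degrading enzyme, by -0.28 ± 0.18. In haem breakdown and iron storage 2 of 5 were above and 3 below, with the ferritin chain Fth1 at -0.11 ± 0.18, the iron exporter Slc40a1 at 0.10 ± 0.21 and Hmox2 at -0.06 ± 0.20.

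Of 6 genes that supply NADPH 2 were above and 4 below, with a median of -0.10. The mitochondrial transhydrogenase Nnt was at 11.14 and 11.11 in thiamine rats, against 11.44 and 11.53 in untreated rats, a difference of -0.36 ± 0.18 (adjusted p = 0.77). The mitochondrial isocitrate dehydrogenase Idh2 was at 11.72 and 11.70 in thiamine rats, against 11.88 and 12.23 in untreated rats, a difference of -0.34 ± 0.19. Both were apart without overlap, as were 19.0% of all named genes in the downward direction, and both are named for their small p in the list. Pgd, of the pentose phosphate pathway, overlapped at -0.16 ± 0.20. Of 11 detoxifying genes known as NRF2 targets 9 were above and 2 below, with a median of 0.15, the same as that of the members. For 1 of the 11 both thiamine rats lay above both untreated rats, as for 18.5% of all named genes. Per rat, the median deviation of this list was 0.16 and -0.04 in thiamine rats 1 and 2, against 0.06 and -0.18 in untreated rats 1 and 2. As with the members, the list did not set the groups apart. The aldehyde dehydrogenase Aldh1a1 differed by 0.29 ± 0.21, the aldehyde reductase Akr7a3 by 0.28 ± 0.26 and the oxidative stress gene Osgin1 by 0.25 ± 0.25, and the groups overlapped for all 3. For Osgin1, as for Hmox1, rats of a group differed by more than the groups did. Akr7a3 was at 13.74 and 12.92 in thiamine rats, against 13.19 and 12.91 in untreated rats, and Osgin1 at 14.11 and 13.64 in thiamine rats, against 13.96 and 13.28 in untreated rats.

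**Figure D5:**
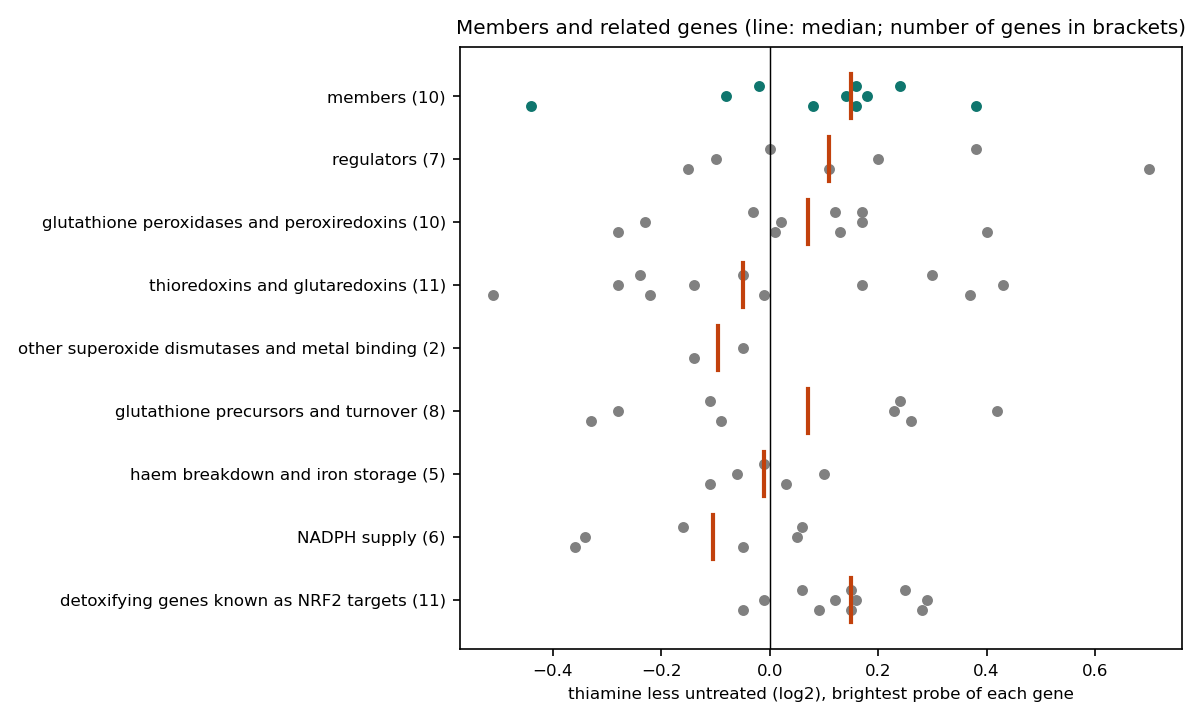
Difference between thiamine and untreated livers (log2) for the 10 members (green) and for the genes of 8 related lists (grey), 1 point per gene, with the median of each list as a line. Medians lie between -0.10 for NADPH supply and 0.15 for the members and the detoxifying genes, and points of both signs occur in 8 of the 9 rows.

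The hepatocyte markers bore out the tissue label. Of 8 on the list 8 were measured, with albumin, Alb, at 15.27 and 15.30 in thiamine rats, against 15.15 and 15.36 in untreated rats, and 2 of them were above and 6 below, with a median difference of -0.04. Cps1, the entry enzyme of the urea cycle, stood apart from that median, at 13.21 in both thiamine rats, against 12.77 and 12.58 in untreated rats (0.53 ± 0.18, adjusted p = 0.54, limma); it is named after its values were seen. Endothelial markers had a median of 0.28, with 6 of 7 above, and a summed intensity of 6357 and 5689 in thiamine rats, against 4621 and 4425 in untreated rats. For the few measured markers of stellate cells (3 of 4 above), bile ducts (1 of 2), neutrophils (0 of 1), lymphocytes (3 of 3) and red blood cells (2 of 3) the medians lay between -0.38 and 0.23. The part of these cells in the members' values was not tested. Between 18176 and 20071 gene probes per array were above background, and between 1.49% and 7.49% of spots were marked as contaminated, most on the array of thiamine rat 1.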

How the data were processed

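Per the file headers, the scanner files come from CodeLink Expression Analysis 5.0.0.31312. They give, for 35129 features, the deposited intensity of each spot on a linear scale, its local background and a quality flag; the series' value table holds intensity values as deposited, whose making is not stated there. Spot means were background corrected with normexp (offset 50), the 1280 control features were left out, and log2 values of 33849 probes were quantile normalized. Masked spots were missing. The test kept 18664 probes that both arrays of either group showed above background. Symbols came from the platform annotation, updated by gene identifier against RefSeq (GRCr8), and 13 probes with conflicting sources were left unnamed. Each gene takes its values from the kept probe with the highest mean.

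The comparison used limma 3.58.1 (R 4.3.3; lmFit, eBayes, two-sided, 2 residual degrees of freedom, 10.8 after moderation), with Benjamini-Hochberg adjustment over all kept probes. An SE is the moderated one, and an interval is a 95% one from the same fit. The fit was also run on data simulated from its own variance model, with known differences put into 200 probes. That run checked that the fit returns the differences put in, and it is no evidence on these rats.

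The members and lists were chosen with earlier results of these data known. Named were every member, every measured regulator, the 3 genes of each other pathway list with the smallest unadjusted p, and the brightest markers. The related lists were regulators, peroxidases and peroxiredoxins, thioredoxins and glutaredoxins, other superoxide dismutases and metal binding, glutathione precursors and turnover, haem and iron, NADPH supply, and detoxifying genes. Alternatives covered the background correction, scaling, dim probes, spots with quality flags, the deposited table, the replicate number as a block, the choice of probe and leaving out each rat.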

Additional observations from a re-analysis of the deposited data

How the results depend on the processing

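Over 13 alternatives no member passed after adjustment. With 1 rat left out, the remaining rat of its group being taken to vary as the other group does, limma called between 1 and 50 probes over all genes and none of the members, and between 693 and 2442 probes had an unadjusted p under 0.05. The members' median difference was then between 0.02 and 0.20. Gclc ran from -0.20 to 0.36, Gsr from -0.15 to 0.42, Nqo1 from -0.17 to 0.13, Hmox1 from -0.28 to 0.60, Sod1 from -0.21 to 0.05 and Cat from -0.04 to 0.40; the cause was not tested. With all 4 rats, Nqo1 was at 0.02 with median scaling and Sod1 at 0.13 with the mean of its probes, and no other member changed sign. The unadjusted p of Gss lost its side of 0.05 with subtracted intensities, no filter, flagged spots missing, the deposited table and the replicate block, and between 0 and 2 members were under 0.05 with 1 rat left out. The labels give replicate numbers 1 and 2 in both groups, and nothing there says that they mark pairs. Rats of the same number did not deviate together over all probes (correlation -0.074 over 18650 probes). This single value cannot tell whether they did so in part of the genes. With the replicate block 126 probes were called and none of the members, whose smallest adjusted p was 0.74. The deposited table kept the rank order of the scanner values on each array. A block for scan date or slide was not run, since each array has its own slide and no scan date was at hand. Signal over background limits Srxn1 and the dimmer probe of Gsr.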
